A study of Mus musculus with 6 samples.

Results

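The macrophage and leukocyte marker genes described here are 33 genes, given as a list by name, whose transcripts were measured in cultures labelled as primary Sertoli cells. Probes were found for 31 of the 33 genes, through 48 probes, and 28 genes were tested among the 14236 genes tested in all. Cd68, a lysosomal glycoprotein of macrophages, and H2-Eb1, a class II chain, had no matched probe. Spi1, the transcription factor PU.1 of myeloid and B cells, and the chemokine receptors Ccr1 and Ccr2 had probes that were not detected, where a gene counted as detected if both arrays of some group read it well above background.

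Macrophages are the main leukocytes of the testis and lie mostly in the interstitium, next to Leydig cells, vessels and the outer wall of the tubules. Their survival depends on signalling through the receptor Csf1r, and they recognise, take up and digest cells and antibody-coated particles through scavenger receptors, complement C1q, Fc receptors and lysozyme. Fc receptors and several lectins signal through small adaptors that carry an immunoreceptor tyrosine-based activation motif (ITAM), and class II molecules present the digested peptides to T cells. The genes of this list mark macrophages and other leukocytes, although some of them are also transcribed in other cells.

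Sertoli cells support the germ cells from within the seminiferous tubule. All 3 groups came from C57BL/6J mice and shared the same base medium, F12/DMEM with insulin at 10 µg/ml, transferrin at 5 µg/ml and epidermal growth factor at 5 ng/ml, at 34 °C. From day 5 of culture, cells received for 24 h either vehicle, 20 ng bFGF (basic fibroblast growth factor; the labels give no volume) or 10 µM PD0325901, an inhibitor of the kinases MEK1 and MEK2. Each group had 2 single-colour arrays, so every treated group was set against vehicle-treated cells that were themselves exposed to epidermal growth factor. Whether the 2 arrays of a group had RNA from separate animals or cultures is not in the labels, so p-values here reflect the spread between the arrays in hand, and that spread may be technical. The 3 treatments were on 3 separate slides, and a slide effect and a treatment effect cannot be told apart.

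Levels are given as log2 of the processed signal relative to the array's 75th percentile, and a level is compared between arrays for the same probe only. That percentile lay between 1464 and 1613 signal units on the 6 arrays. Of all probes, 66.0% and 66.6% were well above background on the vehicle arrays, 75.9% and 75.6% on the bFGF arrays and 66.6% and 64.9% on the PD0325901 arrays, so dim genes were detected more often under bFGF. Of the 28 tested genes, 27 and 26 were well above background on the vehicle arrays, 28 on both bFGF arrays and 26 on both PD0325901 arrays. The genes Cd163, Klrb1a and Cx3cr1 were the 3 not seen above background on every array. All 16 listed Sertoli cell genes were well above background on all 6 arrays. The same cultures also held signal of 6 tested Leydig cell genes, 9 myoid genes, 9 germ cell genes and 10 fibroblast genes on every array. Detection alone therefore does not tell these cell types apart and is no check of the label.

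The start regions of 6 of the genes are shown because they belong to the genes on which the results turn: Lyz1, Lyz2, C1qb and Mrc1, which were lower under PD0325901 and share a short motif, Klrb1a, which went below background under PD0325901, and Aif1, which moved the other way. Each sequence is the 250 bases before the annotated start, from RefSeq on GRCm38.p6, written 5′ to 3′ along the gene. Capitals mark AGGAAGT, a core of sites of ETS factors (the family that includes PU.1), searched on both strands, here read as its complement.
Lyz1: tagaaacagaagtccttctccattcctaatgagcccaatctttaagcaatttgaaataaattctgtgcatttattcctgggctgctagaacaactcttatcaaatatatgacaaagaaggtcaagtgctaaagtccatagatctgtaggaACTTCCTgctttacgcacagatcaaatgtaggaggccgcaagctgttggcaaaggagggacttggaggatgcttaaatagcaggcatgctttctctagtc
Lyz2: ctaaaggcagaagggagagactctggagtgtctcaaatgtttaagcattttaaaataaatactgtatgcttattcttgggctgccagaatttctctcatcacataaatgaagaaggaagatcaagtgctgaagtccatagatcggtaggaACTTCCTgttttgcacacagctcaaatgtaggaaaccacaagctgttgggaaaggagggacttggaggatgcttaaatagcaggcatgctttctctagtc
C1qb: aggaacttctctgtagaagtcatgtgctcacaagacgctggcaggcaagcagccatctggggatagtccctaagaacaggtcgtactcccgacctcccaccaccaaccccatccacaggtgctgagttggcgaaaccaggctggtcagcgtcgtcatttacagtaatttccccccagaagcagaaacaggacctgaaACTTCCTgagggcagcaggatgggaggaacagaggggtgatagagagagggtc
Mrc1: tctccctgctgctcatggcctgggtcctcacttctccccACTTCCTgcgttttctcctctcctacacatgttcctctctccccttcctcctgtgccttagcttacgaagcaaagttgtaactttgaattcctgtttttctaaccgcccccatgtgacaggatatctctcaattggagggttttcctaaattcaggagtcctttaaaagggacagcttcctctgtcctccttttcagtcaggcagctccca
Klrb1a: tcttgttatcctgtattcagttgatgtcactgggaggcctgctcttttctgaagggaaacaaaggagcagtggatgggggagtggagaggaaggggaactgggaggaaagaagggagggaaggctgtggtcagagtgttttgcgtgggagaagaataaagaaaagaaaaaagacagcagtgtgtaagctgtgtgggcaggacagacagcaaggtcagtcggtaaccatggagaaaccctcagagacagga
Aif1: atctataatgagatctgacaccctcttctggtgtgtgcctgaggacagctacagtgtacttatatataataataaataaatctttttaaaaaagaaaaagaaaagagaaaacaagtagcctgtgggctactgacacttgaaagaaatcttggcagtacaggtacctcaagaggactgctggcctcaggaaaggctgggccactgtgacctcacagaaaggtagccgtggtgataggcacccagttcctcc
They lie at chr10:117292869-117293118 (Lyz1, minus strand), chr10:117282273-117282522 (Lyz2, minus strand), chr4:136886201-136886450 (C1qb, minus strand), chr2:14229164-14229413 (Mrc1, plus strand), chr6:128622935-128623184 (Klrb1a, minus strand) and chr17:35176053-35176302 (Aif1, minus strand). The motif began 100 bases before the start in both lysozyme genes, 53 bases before it in C1qb and 211 bases before it in Mrc1, and these letters were not found in the windows of Klrb1a and Aif1. Promoter entries were found for 23 of the 33 genes, and 7 of these (30.4%) held the motif: Ptprc, Mrc1, Lyz1, Lyz2, C1qb, C1qc and Fcgr1. Among all 27025 genes with an entry, 8.80% held it. Of the 7 genes, all of them tested, 5 were lower under PD0325901, among them both lysozyme genes, against 11 of the 23 with an entry. The 23 include Cd68, which had no matched probe and could not count as lower, so the shares have unlike bases. A second motif, TGANTCA, the AP-1 site, again on both strands, was found for Cd68, Trem2 and Ms4a7, or 13.0% of the 23, against 7.82% of all genes with an entry. A match is a description of the letters and not evidence of binding. The windows of Lyz1 and Lyz2, which are tandem copies of 1 gene, were identical at 92.0% of the 100 bases next to the start, and their transcripts are also close copies, so signal of the 2 genes may be shared.

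Under PD0325901, 12 of the 28 genes were lower than in vehicle, 2 were higher and 14 did not pass the test (limma, Benjamini-Hochberg adjusted p under 0.05 over all tested genes). The inhibitor changed a large part of the transcriptome: 53.4% of all genes tested passed, 29.3% lower and 24.1% higher. Of the marker genes, 42.9% were lower and 7.14% higher. The median difference of the 28 genes was -0.48 on the log2 scale, against -0.05 over all genes tested, and 25 of the 28 differences lay below 0. The 2 groups did not overlap for 21 of the 28 genes (75%), against 79.7% of all genes. Since RNA was taken from whole cultures, fewer cells of a type and less RNA per cell cannot be told apart.

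**Figure D1:**
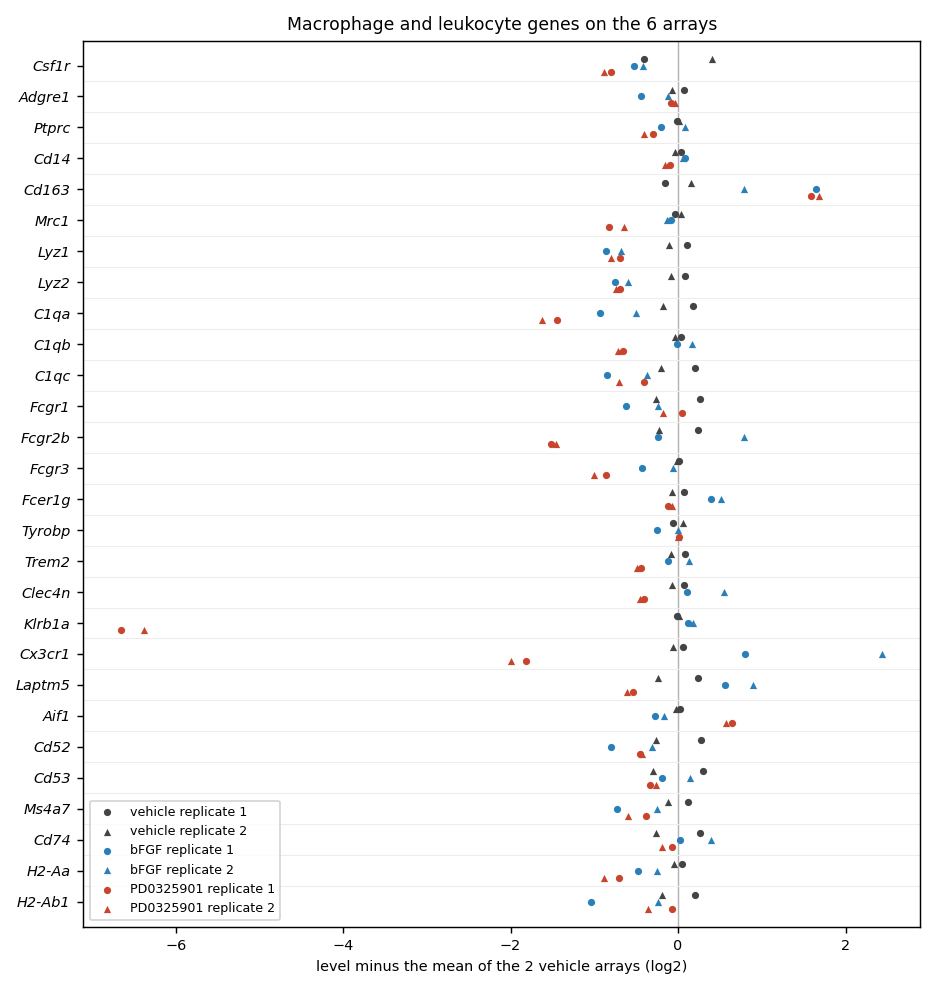
Level of each of the 28 tested marker genes on each of the 6 arrays, as log2 signal relative to that gene's vehicle mean (x axis). Circles are replicate 1 and triangles replicate 2, with vehicle in grey, bFGF in blue and PD0325901 in red. The red points of Klrb1a, which are below background, lie far to the left, and those of Aif1 and Cd163 lie to the right of both vehicle points.

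Of the 3 tested genes of leukocyte identity, 1 passed. Ptprc encodes the pan-leukocyte surface phosphatase CD45. Its level was -4.78 and -4.75 in vehicle, -4.97 and -4.69 with bFGF and -5.07 and -5.17 with PD0325901. Both PD0325901 arrays were below both vehicle arrays, and the bFGF arrays lay on either side of vehicle. Ptprc fell by 0.35 ± 0.11 (SE, n = 2 arrays a group) on the log2 scale under PD0325901, with an adjusted p of 0.0473 by limma. The call was lost when any 1 of the 4 vehicle and PD0325901 arrays was left out (adjusted p from 0.106 to 0.181) and with quantile normalization, which gave -0.13 (adjusted p = 0.374).

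Csf1r, the receptor for the growth factors CSF1 and IL-34, had levels of -2.44 and -1.61 in vehicle, -2.55 and -2.45 with bFGF and -2.82 and -2.91 with PD0325901. The 2 vehicle arrays stood apart by more than the bFGF and PD0325901 groups did from each other, and the PD0325901 difference of -0.84 ± 0.28 did not pass (limma, adjusted p = 0.0617). A second Csf1r probe, with levels of -3.68 and -3.74 in vehicle and -4.26 and -4.30 with PD0325901, differed by -0.57 (adjusted p = 0.0116 in the limma fit over every detected probe). The first probe's difference passed when either vehicle array was left out, at -1.25 without replicate 1 (adjusted p = 0.00302) and -0.43 without replicate 2 (0.0191), so its size depends on the vehicle array kept. It also passed with normexp background correction (0.0297), with probes above background on all 6 arrays (0.0396) and with an intensity trend (0.0187). The mean of all detected Csf1r probes differed by -0.91 (limma, adjusted p = 0.00327). It included a further, dimmer probe that was above background on the bFGF arrays alone. In the fit over every detected probe, that probe differed by -1.32 under PD0325901 (adjusted p = 0.0018), where neither group was above background. Under bFGF it differed by 0.83 (0.0238), against -0.47 and -0.18 for the other Csf1r probes, which did not pass. Adgre1, the adhesion receptor F4/80 of mature mouse macrophages, read -2.99 and -3.13 in vehicle, -3.51 and -3.19 with bFGF and -3.15 and -3.10 with PD0325901. Its vehicle and PD0325901 arrays overlapped and the difference was -0.06 ± 0.12. The probe of Spi1 was well above background on 1 array, of bFGF-treated cells.

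Of 5 tested genes of phagocytosis, scavenging and lysozyme, 3 were lower under PD0325901, 1 was higher and 1 did not pass. Mrc1, the mannose receptor CD206, read -0.19 and -0.12 in vehicle, -0.24 and -0.29 with bFGF and -0.98 and -0.80 with PD0325901. The bFGF arrays lay just below vehicle and the PD0325901 arrays well below both. Mrc1 fell by 0.73 ± 0.08 under PD0325901 (1.66-fold, limma, adjusted p = 0.0021), while bFGF differed from vehicle by -0.11 ± 0.08 (adjusted p = 0.339).

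Lysozyme breaks bacterial cell walls, and Lyz2 is its form in macrophages and neutrophils. The level of Lyz2 was 3.26 and 3.08 in vehicle, 2.42 and 2.58 with bFGF and 2.47 and 2.43 with PD0325901. Both treated groups lay below vehicle and overlapped each other. Lyz2 fell by 0.72 ± 0.09 under PD0325901 (limma, adjusted p = 0.00345) and fell by 0.67 ± 0.09 under bFGF (adjusted p = 0.0171). For Lyz1 the values were 0.34 and 0.13 in vehicle, -0.62 and -0.44 with bFGF and -0.46 and -0.57 with PD0325901, again with both treated groups below vehicle. Lyz1 fell by 0.75 ± 0.11 under PD0325901 (limma, adjusted p = 0.00526) and fell by 0.77 ± 0.11 under bFGF (adjusted p = 0.0189). Under bFGF neither call held without 1 of the bFGF arrays, with adjusted p of 0.0747 and 0.0754 for Lyz1 and of 0.0678 and 0.0701 for Lyz2. A second, dimmer Lyz2 probe differed by -0.50 under PD0325901 and by -0.71 under bFGF, with neither passing.

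Cd163, the scavenger receptor for haemoglobin bound to haptoglobin, was not well above background on either vehicle array. Its level was -6.50 and -6.19 in vehicle, -4.70 and -5.55 with bFGF and -4.75 and -4.66 with PD0325901. All 4 treated arrays were brighter than both vehicle arrays. Cd163 passed detection through the treated groups alone, so a direction above vehicle was favoured by how it entered. For a gene below background throughout 1 group, the fold is a minimum: the dim group was set, per array, at the higher of its own signal and the lowest signal well above background. Cd163 was at least 2.87-fold higher under PD0325901 (limma, adjusted p = 0.0121), and the call was lost without vehicle replicate 1 (0.0542) or without either PD0325901 array (0.0550 and 0.0617). Under bFGF the bound was 2.15-fold and the difference did not pass (adjusted p = 0.0587). Cd14, the co-receptor for bacterial lipopolysaccharide, ranged from 1.24 to 1.47 over the 6 arrays and differed from vehicle by -0.13 ± 0.05 under PD0325901 (adjusted p = 0.0911).

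C1q, the recognition protein of the classical complement pathway, is built of chains encoded by C1qa, C1qb and C1qc, and 2 of these 3 genes passed. C1qa read -2.25 and -2.60 in vehicle, -3.36 and -2.93 with bFGF and -3.87 and -4.06 with PD0325901. The groups did not overlap, with bFGF between the other 2. C1qa fell by 1.54 ± 0.20 under PD0325901 (2.90-fold, limma, adjusted p = 0.00409), and the bFGF difference of -0.72 ± 0.20 did not pass (adjusted p = 0.0705). C1qb read -2.64 and -2.72 in vehicle, -2.70 and -2.51 with bFGF and -3.33 and -3.40 with PD0325901. Here the bFGF arrays overlapped vehicle, and C1qb fell by 0.68 ± 0.08 under PD0325901 (adjusted p = 0.00296). C1qc, at -1.69 and -2.10 in vehicle, -2.74 and -2.26 with bFGF and -2.30 and -2.60 with PD0325901, differed by -0.55 ± 0.24 (adjusted p = 0.114). The replicates of C1qc within vehicle and bFGF were 0.41 and 0.48 apart, and its 2 treated groups overlapped.

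Of the 8 genes of Fc receptors, lectins and ITAM adaptors, 4 were lower under PD0325901 and 4 did not pass. The low-affinity receptors for IgG were among those that fell, and the adaptor Fcer1g was among those that did not pass. Fcgr3, an activating receptor, had levels of -2.75 and -2.77 in vehicle, -3.18 and -2.82 with bFGF and -3.62 and -3.76 with PD0325901. The PD0325901 arrays were lowest and bFGF lay between. Fcgr3 fell by 0.93 ± 0.13 (limma, adjusted p = 0.0056), and its second probe differed by -1.26.

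Fcgr2b, the inhibitory IgG receptor, read -4.20 and -4.66 in vehicle, -4.67 and -3.65 with bFGF and -5.95 and -5.89 with PD0325901. The bFGF arrays were 1.02 apart and spanned vehicle, whereas both PD0325901 arrays lay far below. Fcgr2b fell by 1.49 ± 0.38 (limma, adjusted p = 0.0299), but no longer passed when any 1 of the 4 vehicle and PD0325901 arrays was left out (0.0565 to 0.113) or with quantile normalization (-1.17, adjusted p = 0.0747). Its other probes were above background on the vehicle and bFGF arrays and on neither PD0325901 array. They differed by -2.26 and -2.65 under PD0325901 (adjusted p = 0.00322 and 0.00264 in the limma fit over every detected probe). The size of these differences rests on PD0325901 signal below background. The Fcgr genes are related in sequence, so probes may share some signal.

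Fcer1g encodes the gamma chain through which activating Fc receptors signal. It read -1.21 and -1.36 in vehicle, -0.89 and -0.77 with bFGF and -1.40 and -1.36 with PD0325901. Vehicle and PD0325901 overlapped, and both bFGF arrays were above all others. Its PD0325901 difference was -0.10 ± 0.07 (limma, adjusted p = 0.327). Tyrobp, the adaptor DAP12 used by Trem2, lay between -2.43 and -2.13 on all 6 arrays, with a PD0325901 difference of 0.00495 ± 0.10. The high-affinity IgG receptor Fcgr1 also overlapped between the groups, at -2.65 and -3.18 in vehicle and -2.87 and -3.09 with PD0325901.

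Trem2, a lipid-sensing receptor of macrophages and microglia, read -0.53 and -0.70 in vehicle, -0.73 and -0.49 with bFGF and -1.06 and -1.10 with PD0325901. The vehicle and bFGF arrays overlapped, and the PD0325901 arrays were below them. Trem2 fell by 0.47 ± 0.11 (limma, adjusted p = 0.0223), its second probe differed by -0.50, and the call was lost without vehicle replicate 1 (0.0804) or either PD0325901 array (0.0832 and 0.0987). Clec4n, the fungal receptor Dectin-2, had levels of -4.52 and -4.66 in vehicle and -4.99 and -5.04 with PD0325901, a difference of -0.43 ± 0.16 that did not pass (adjusted p = 0.0831).

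Klrb1a is a C-type lectin-like receptor of the NKR-P1 family, known from natural killer cells, which signals through the Fc receptor gamma chain. Its level was -2.19 and -2.17 in vehicle, -2.06 and -1.996 with bFGF and -8.83 and -8.56 with PD0325901. The 4 vehicle and bFGF arrays lay close together, and the gene was not above background on either PD0325901 array. Klrb1a was at least 18.7-fold lower under PD0325901 than in vehicle (limma, adjusted p = 4.83e-05). It rested on 1 probe with 1 spot an array. Of other natural killer cell genes on the lists, Gzma, Gzmb, Prf1, Ncr1, Klrd1, Klrk1 and Klrc1 were not detected. The related Klrb1c was well above background on the 2 bFGF arrays and on none of the other 4. Nkg7 and Il2rb were detected and tested, with Nkg7 above background on no vehicle or PD0325901 array.

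**Figure D2:**
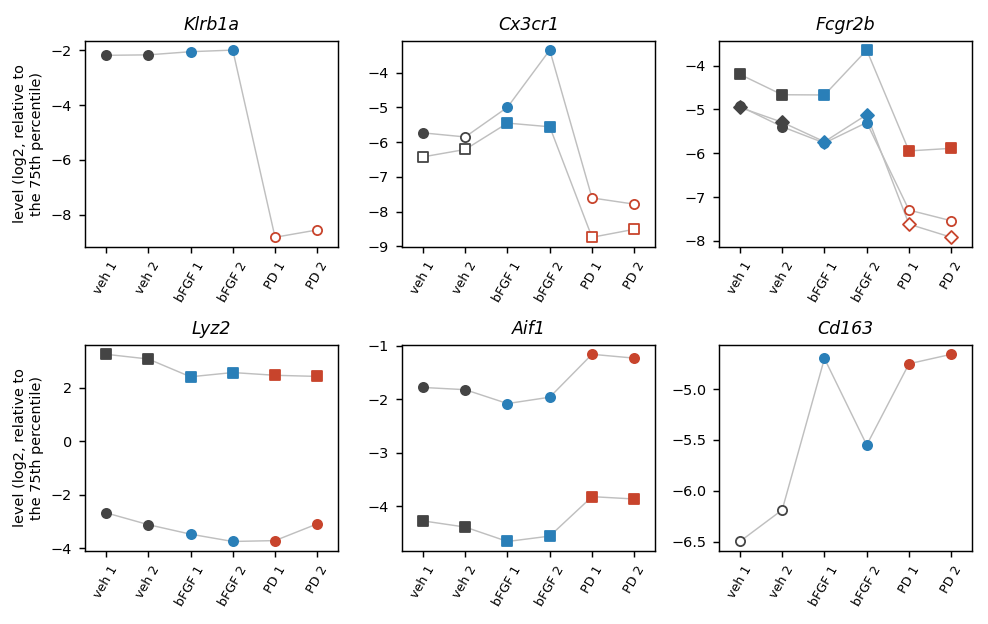
Every probe of Klrb1a, Cx3cr1, Fcgr2b, Lyz2, Aif1 and Cd163 on each array, as log2 signal relative to the array's 75th percentile (y axis), with arrays grouped by treatment (x axis). The marker shape tells the probes of a gene apart and a filled marker means well above background. Klrb1a is open on both PD0325901 arrays, and the 2 probes of Aif1 both rise there.

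Cx3cr1, the receptor for fractalkine, was the 1 chemokine receptor detected. It read -5.73 and -5.85 in vehicle, where 1 of the 2 arrays was above background, -5.00 and -3.35 with bFGF, and -7.60 and -7.78 with PD0325901, where neither was. The bFGF arrays stood 1.64 apart, the widest replicate gap of the bFGF group among these genes. Cx3cr1 was at least 1.53-fold lower under PD0325901 (limma, adjusted p = 0.0437). The call was lost when any 1 of the 4 vehicle and PD0325901 arrays was left out (0.116 to 0.15) and with quantile normalization (-1.44, adjusted p = 0.116). A second probe was above background on the bFGF arrays alone. Normexp background correction, which adds a fixed offset and so by construction shrinks differences between dim signals, moved several of these values by more than 1.5 times: Klrb1a to -2.78, Fcgr2b to -0.57, Cx3cr1 to -0.33, H2-Aa to -0.49, Ptprc to -0.13 and Cd163 to 0.49 under PD0325901, with the call lost for Fcgr2b (0.0688), Cx3cr1 (0.325) and Ptprc (0.124).

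Of 5 genes for other leukocyte membrane and cytoplasmic proteins, 1 passed, and it was higher. Aif1, which encodes the actin-bundling protein IBA1 of macrophages and microglia, read -1.78 and -1.82 in vehicle, -2.08 and -1.96 with bFGF and -1.16 and -1.23 with PD0325901. The groups did not overlap, with bFGF lowest and PD0325901 highest. Aif1 rose by 0.61 ± 0.06 under PD0325901 (limma, adjusted p = 0.00192), and its second probe was 0.49 higher. The lysosomal protein gene Laptm5 differed by -0.57 ± 0.20 (adjusted p = 0.0662), the tetraspanin gene Cd53 by -0.30 ± 0.23 (0.329), the glycoprotein gene Cd52 by -0.44 ± 0.24 (0.192) and the macrophage gene Ms4a7 by -0.49 ± 0.20 (0.0994). In Cd52, Cd53 and Laptm5 the 2 vehicle arrays alone were 0.54, 0.60 and 0.47 apart. A second Ms4a7 probe, above background on all 6 arrays, differed by -0.66 (adjusted p = 0.04 in the limma fit over every detected probe). The first Ms4a7 probe passed with normexp and with an intensity trend (limma, adjusted p = 0.0475 and 0.0472).

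Among the MHC class II genes, 1 of 3 passed. H2-Aa, the alpha chain of the I-A molecule, read -3.70 and -3.80 in vehicle, -4.22 and -4.00 with bFGF and -4.46 and -4.63 with PD0325901. The 3 groups were ordered without overlap. H2-Aa fell by 0.79 ± 0.11 under PD0325901 (limma, adjusted p = 0.0044), and its second probe differed by -0.65. The beta chain gene H2-Ab1 read -1.85 and -2.24 in vehicle, -3.09 and -2.28 with bFGF and -2.12 and -2.40 with PD0325901, with vehicle and PD0325901 overlapping (difference -0.22 ± 0.32, adjusted p = 0.599) and both bFGF arrays below both vehicle arrays. Its bFGF difference did not pass on this probe. A second, dimmer H2-Ab1 probe read -4.73 and -5.16 in vehicle, -6.81 and -6.13 with bFGF and -5.44 and -5.42 with PD0325901, and with bFGF it differed by -1.53 from vehicle (adjusted p = 0.0373 in the limma fit over every detected probe) and by -1.04 from PD0325901 (0.0317). The remaining probe differed by -0.54 under bFGF (0.187), and neither of these probes passed under PD0325901. For the invariant chain gene Cd74 the difference was -0.13 ± 0.22 (adjusted p = 0.646). Of the 2 chains of I-A, 1 passed, and the difference between them was not tested.

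**Figure D3:**
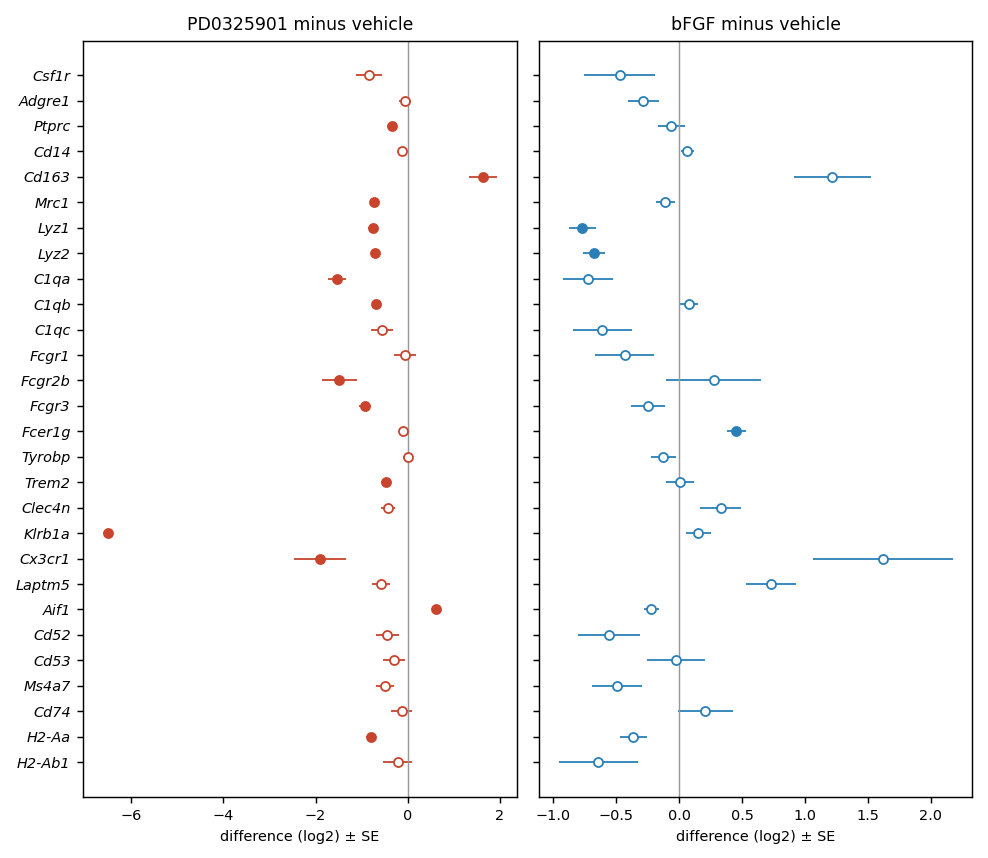
Difference from vehicle for each tested marker gene, as log2 with its standard error (x axis), for PD0325901 in the left panel and bFGF in the right panel. Filled points passed the limma test. In the left panel 12 filled points lie left of 0 and 2 right of it, and in the right panel 2 lie left and 1 right.

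Under bFGF, 2 of the 28 genes were lower than in vehicle (7.14%), 1 was higher (3.57%) and 25 did not pass, against 19.9% of all genes that passed, 7.28% lower and 12.6% higher. The share lower was near that of all genes, and the share higher was below it. The median of the 28 differences was -0.12, against 0.03 over all genes, and 20 genes (71.4%) did not overlap between the groups, against 67.5% of all genes. Without bFGF replicate 2, limma called 0 of all 14236 genes in this comparison (3722 at an unadjusted p under 0.05). The 2 lower genes were Lyz1 and Lyz2, given above. Fcer1g was the 1 that rose, by 0.46 ± 0.07 (limma, adjusted p = 0.0249). That call was lost without vehicle replicate 2 (0.0566) or either bFGF array (0.0715 and 0.118), and, since all 6 arrays share the estimate of spread, without either PD0325901 array (0.0652). Cx3cr1, above background on 1 of the 2 vehicle arrays, did not pass (adjusted p = 0.108). The comparisons of PD0325901 and of bFGF with vehicle share the vehicle arrays, so the 2 differences of a gene are not independent.

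Set directly against PD0325901, bFGF gave higher levels of 13 of the 28 genes (46.4%) and a lower level of 1, against 62.0% of all genes that passed, 36.6% higher and 25.4% lower. The median difference was 0.31, against 0.08 over all genes, and 20 genes (71.4%) did not overlap, against 86.7%. Klrb1a was at least 20.8-fold higher with bFGF than with PD0325901 (limma, adjusted p = 5.4e-05). Cx3cr1 was at least 4.70-fold higher (limma, adjusted p = 0.00617). It passed detection through the bFGF arrays alone, so this direction follows from how it entered. Laptm5, which passed neither test against vehicle, read -4.42 and -4.09 with bFGF and -5.52 and -5.59 with PD0325901, and was 1.30 ± 0.20 higher (adjusted p = 0.00537). C1qb was 0.76 ± 0.08 higher, Mrc1 0.62 ± 0.08 higher and Fcer1g 0.55 ± 0.07 higher, with adjusted p of 0.00183, 0.0028 and 0.00385 by limma.

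The other genes higher with bFGF than with PD0325901 were Fcgr2b (1.76), C1qa (0.81), Clec4n (0.76), Fcgr3 (0.68), Trem2 (0.47), H2-Aa (0.43) and Cd14 (0.19). The count higher was 8 and 6 without PD0325901 replicate 1 and 2. These 7 calls were each lost without 1 or more single arrays, with adjusted p up to 0.132, and quantile normalization lost H2-Aa at 0.049 (adjusted p = 0.703), Clec4n at 0.34 (0.145), C1qa at 0.59 (0.0659) and Fcgr2b at 1.26 (0.0562). Normexp moved Klrb1a to 2.91, Cx3cr1 to 1.03, Fcgr2b to 0.72, Laptm5 to 0.59, Clec4n to 0.33 and H2-Aa to 0.22, all still passing. Aif1 was the 1 gene lower with bFGF, with a difference of -0.83 ± 0.06 (limma, adjusted p = 0.000678). Lyz1 and Lyz2 differed by -0.02 ± 0.11 and 0.04 ± 0.09 between the 2 treatments, and the level of either gene overlapped between them.

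Within vehicle and within bFGF, many of the marker genes differed between the replicate arrays. Within bFGF, replicate 2 was above replicate 1 for 25 of the 28 genes, with a median of replicate 1 minus replicate 2 of -0.30, against -0.02 over all genes tested. The 2 bFGF arrays were more than 0.3 apart for 15 of the 28 genes (53.6%), against 10.5% of all genes. Within vehicle, replicate 1 was the higher for 22 genes, with a median of 0.15 against 0.01, and 11 genes (39.3%) were more than 0.3 apart, against 15.1% of all genes. Within PD0325901, 1 gene (3.57%) was that far apart, against 9.67%. Some other lists had similar gaps. In vehicle, 43.5% of 46 other myeloid genes, 41.2% of 17 lymphocyte genes and 40% of 10 endothelial genes were more than 0.3 apart. Fewer were among 13 genes of Fc and ITAM signalling (7.69%), 9 germ cell genes (11.1%) and 9 myoid genes (0%). The second bFGF array was the higher for 34 of the 46 myeloid genes and for 9 of the 10 endothelial genes. It was also the higher for all 10 fibroblast, 9 germ cell and 9 myoid genes. None of the 16 Sertoli cell genes was more than 0.3 apart in any group. The standard errors above therefore rest on gaps that most of these genes share within vehicle and within bFGF.

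**Figure D4:**
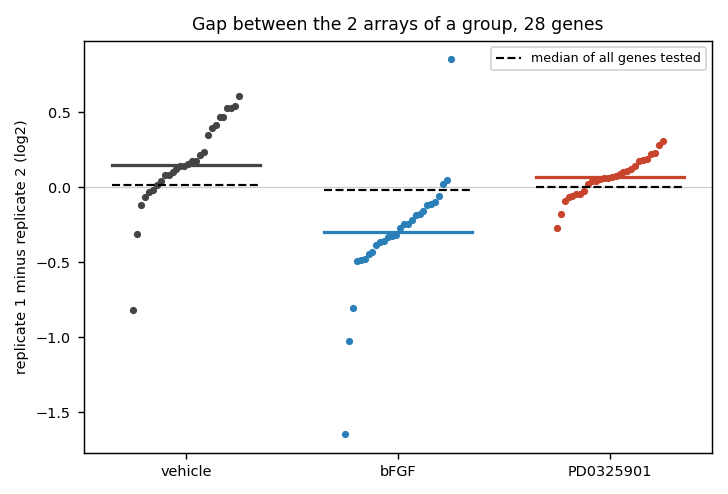
Replicate 1 minus replicate 2, in log2 units, for each of the 28 tested marker genes in each group. The coloured line is the median of the marker genes and the dashed line that of all genes tested. The bFGF points lie mostly below 0 (median -0.30), the vehicle points mostly above it (median 0.15) and the PD0325901 points close to it (median 0.07).

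Summed over the 28 genes, the linear signal relative to the 75th percentile was 18.7 and 16.9 in vehicle, 13.1 and 14.5 with bFGF and 12.4 and 12.01 with PD0325901. Lyz2 made up 51.2% of that sum on vehicle replicate 1. Without Lyz1 and Lyz2, the other 26 genes summed to 7.85 and 7.34 in vehicle, 7.06 and 7.77 with bFGF and 6.17 and 5.95 with PD0325901. The bFGF arrays then overlapped vehicle, and both PD0325901 arrays remained below the other 4. The 11 genes with several detected probes gave differences of 1 sign over all their probes in 11 cases for PD0325901 against vehicle, in 9 for bFGF against vehicle (not Csf1r and Fcgr2b) and in 10 for bFGF against PD0325901 (not Lyz2).

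Other genes of macrophages and myeloid cells were taken from a list of 60 genes outside the 33, of which 46 were tested. Under PD0325901, 21 were lower, 2 were higher and 23 did not pass, with a median of -0.50, close to the -0.48 of the marker genes. The share that passed was 50%, against 53.4% of all genes tested. It was 45.7% lower and 4.35% higher, against 29.3% and 24.1% of all genes. Of the 21, Timd4 was above background on no vehicle or PD0325901 array. Without PD0325901 replicate 1, 12 were lower. Among the largest decreases were those of Msr1, a scavenger receptor (-2.33 ± 0.25, limma, adjusted p = 0.00237), Runx1, a transcription factor of blood cells (-1.995 ± 0.08, adjusted p = 0.000225), and Itgax, the integrin CD11c (-1.35 ± 0.06, adjusted p = 0.000222). With normexp these were -1.24, -1.29 and -0.81. Itgam, the integrin CD11b, was among the 10 genes not detected. Under bFGF 4 genes were lower (8.70%) and 3 higher (6.52%), against 7.28% and 12.6% of all genes tested. Most of these calls were lost without either bFGF array. C3ar1, the receptor for complement C3a, rose by 1.04 ± 0.09 (adjusted p = 0.00938), although not without bFGF replicate 2 (0.0669), and was 0.47 with normexp.

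**Figure D5:**
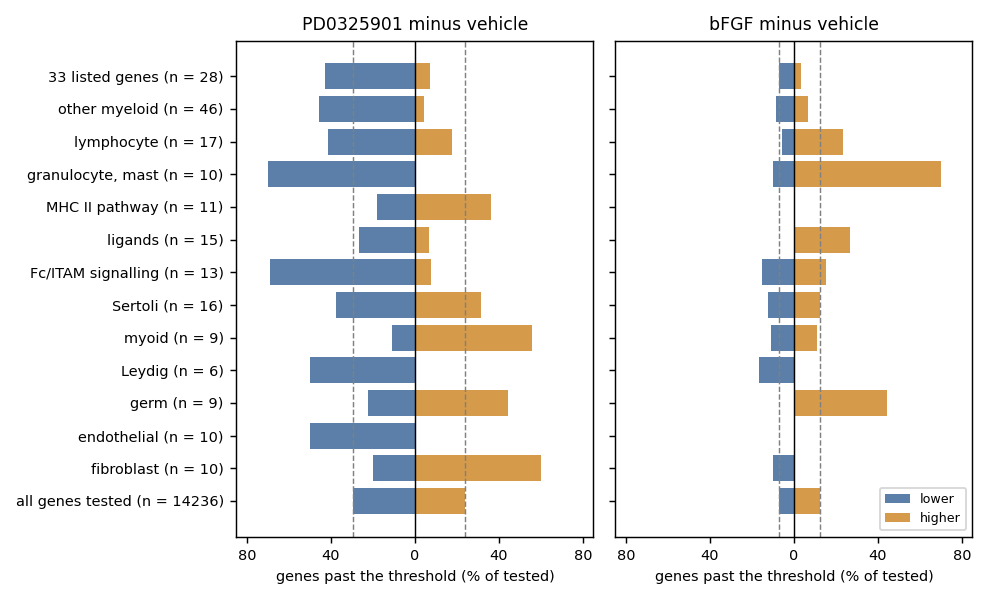
Share of the tested genes of each list that were lower (bars to the left) or higher (bars to the right) than vehicle, in percent, for PD0325901 and for bFGF. Dashed lines mark the share over all 14236 genes tested. The lists differ in size, from 6 to 46 tested genes.

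The ligands of these receptors were measured in the same RNA. Of 15 tested ligands and chemoattractants, 4 were lower under PD0325901 (26.7%), 1 was higher (6.67%) and 10 did not pass, with a median of -0.48. The share lower was near the 29.3% of all genes tested, and the 33.3% that passed was below the 53.4% of all genes. The count lower was larger without vehicle replicate 1. Under bFGF, 26.7% of the ligands were higher, against 12.6% of all genes tested. Of the 2 ligands of Csf1r, Il34 read -0.26 and -0.30 in vehicle and -1.86 and -1.87 with PD0325901 and fell by 1.59 ± 0.04 (limma, adjusted p = 9.34e-05). Csf1 read 1.68 and 1.78 in vehicle and 1.59 on both PD0325901 arrays, a difference of -0.14 ± 0.05 that did not pass (adjusted p = 0.087). Cx3cl1, the ligand of Cx3cr1, fell by 1.35 ± 0.07 (adjusted p = 0.000304), from 1.67 and 1.65 to 0.33 and 0.28.

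Ccl2, the ligand of Ccr2, read 2.32 and 2.40 in vehicle, 3.33 and 3.38 with bFGF and 1.22 and 1.16 with PD0325901. It fell by 1.17 ± 0.05 under PD0325901 (limma, adjusted p = 0.000249) and rose by 0.99 ± 0.05 under bFGF (adjusted p = 0.00667, or 0.0535 without bFGF replicate 2), while Ccr2 itself was not above background on any array. Under bFGF, 4 of the 15 ligands were higher and none was lower, with 2 higher when any array but bFGF replicate 2 was left out and 0 without that one. Ccl7 and Ccl5, which also attract monocytes, rose by 0.38 ± 0.06 and 0.47 ± 0.08 (limma, adjusted p = 0.0272 and 0.0259), and both calls were lost when any 1 of the 6 arrays was left out (up to 0.106 and 0.102).

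Partners of Fc and ITAM receptor signalling were lower in 9 of 13 tested genes under PD0325901 and higher in 1, with a median of -0.52. The share lower was 69.2%, against 29.3% of all genes tested, and 76.9% passed, against 53.4%. Of the 9, Btk was above background on no vehicle or PD0325901 array. The count lower was 5 without vehicle replicate 1, 3 and 4 without either PD0325901 array and 5 with quantile normalization. Fyb, an adaptor of immune receptor signalling, fell by 2.87 ± 0.05 (limma, adjusted p = 5.97e-05), Lyn, a Src-family kinase, fell by 0.77 ± 0.06 (adjusted p = 0.00106) and Cd47, the ligand of Sirpa found on most cells, fell by 0.63 ± 0.05 (adjusted p = 0.000834). Sirpa, the inhibitory receptor of macrophages and the 1 higher gene, read 0.37 and 0.46 in vehicle, -0.28 and -0.12 with bFGF and 0.92 and 0.87 with PD0325901. It rose by 0.48 ± 0.07 under PD0325901 (adjusted p = 0.00678, and 0.30 as the mean of its probes) and fell by 0.61 ± 0.07 under bFGF (adjusted p = 0.0149, or 0.0526 and 0.0609 without either bFGF array). In the class II pathway, 2 of 11 further genes were lower under PD0325901 (18.2%) and 4 were higher (36.4%), with a median of 0.08. The share that passed, 54.5%, was near the 53.4% of all genes tested, of which 29.3% were lower and 24.1% higher. The count higher was smaller when any single array was left out. Ciita, the master regulator of class II transcription, fell by 1.91 ± 0.17 (adjusted p = 0.00144, and -0.71 with normexp) and Lgmn, a lysosomal protease, fell by 2.06 ± 0.07 (adjusted p = 0.000169). H2-DMb1, a chain of the peptide exchanger H2-M, rose by 0.78 ± 0.05 (adjusted p = 0.000691), although the mean of its detected probes differed by 0.17 (adjusted p = 0.668).

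Among markers of granulocytes and mast cells, 10 of 22 genes were tested. Under PD0325901, 7 were lower (70%, against 29.3% of all genes tested) and 3 did not pass. Of the 7, Ms4a2 and Mcpt4 were above background on no vehicle or PD0325901 array. In the separate fit restricted to probes above background on all 6 arrays, 5 genes were tested and 5 were lower. Hdc, which makes histamine, read 2.90 and 2.75 in vehicle, 3.29 and 3.34 with bFGF and -0.90 and -0.93 with PD0325901, and fell by 3.74 ± 0.07 (limma, adjusted p = 5.78e-05). Fcer1a, the IgE-binding chain that pairs with Fcer1g, fell by 0.99 ± 0.06 (adjusted p = 0.000523, and -0.34 with normexp). Under bFGF, 7 of the 10 were higher, Fcer1a by 0.66 ± 0.06 (adjusted p = 0.0103, or 0.0525 and 0.0697 without either bFGF array, and 0.40 with normexp). Of the 7, Ltf, Ms4a2 and Mcpt4 were above background on no vehicle array and entered through the bFGF arrays, so their direction follows from how they entered. In the fit restricted to probes above background on all 6 arrays, 4 of 5 were higher and 1 was lower. Over the 10 genes of the main fit, 70% were higher and 10% lower under bFGF, against 12.6% and 7.28% of all genes tested. The count of 7 was 4 without vehicle replicate 2 or either PD0325901 array, and 1 and 0 without bFGF replicate 1 and 2. Of these 10 genes, 5 were above background on each vehicle array and 10 on each bFGF array. The mast cell protease gene Cpa3 was not detected.

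Markers of other cells of the testis are set against all genes tested, of which 53.4% passed under PD0325901, 29.3% lower and 24.1% higher. The share that passed was 50% for endothelial and for Leydig cell genes, below that of all genes. It was 66.7% for myoid and for germ cell genes, 68.8% for Sertoli cell genes and 80% for fibroblast genes. Of 10 tested endothelial genes, 5 were lower under PD0325901 and none was higher, with a median of -1.20, and their summed signal was 2.18 and 1.87 in vehicle, 1.94 and 2.07 with bFGF and 1.16 and 1.02 with PD0325901. Of 9 myoid genes, 5 were higher and 1 lower, and the sum was 73.4 and 78.2 in vehicle and 104 on both PD0325901 arrays. The 16 Sertoli cell genes were split, with 6 lower and 5 higher and a median of 0.00897, and summed to 413 and 425 in vehicle, 387 and 384 with bFGF and 368 and 392 with PD0325901. Fibroblast genes were higher in 6 of 10 and lower in 2, Leydig cell genes lower in 3 of 6, and germ cell genes higher in 4 of 9 and lower in 2. Without either PD0325901 array, 0 Leydig cell genes were lower and 2 germ cell genes were higher, and without either vehicle array 2 germ cell genes were higher and, for vehicle replicate 1, 1 Leydig cell gene was lower. The part of these cell types in the marker gene results was not tested.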

How the data were processed

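Expression was measured on 6 single-colour Agilent arrays, 2 per group. The authors deposited scanner files with spot intensity on a linear scale, written by Agilent Feature Extraction 9.5.3.1, per the file headers (9.5 per the submitters' processing notes). Processed intensity had the background subtracted and a spatial trend removed, per the file headers, with no scaling between arrays. The authors also deposited a table of log2 values, centred per probe, which served as an alternative.

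Processed signal was scaled to the array's 75th percentile and put on the log2 scale. Spots of 1 probe were averaged, without control and flagged spots, and none was saturated. A RefSeq gene table (GRCm38.p6) matched by accession named 23374 of 41174 probes (56.8%), or 16514 genes. A probe entered if both arrays of some group read it well above background, and the brightest such probe stood for its gene. The array files name an older build than the promoter sequences, so no probe coordinates are given.

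Groups were compared with limma 3.58.1 (lmFit and eBayes, R 4.3.3) in 1 model of all 6 arrays, with p-values adjusted by Benjamini-Hochberg over 14236 genes (threshold 0.05). The fit was tested on simulated data. The number of arrays limits the precision. The alternatives were quantile normalization, another percentile, normexp background correction (offset 50, on the median signal, in place of the planned mean signal, which is not used here), the authors' table, other detection filters, the mean of a gene's probes, an intensity trend, a replicate block and leaving out each array. Testing every detected probe and crossing the block were added after the data were seen.

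All 33 genes are accounted for. From each comparison list, at most the 4 passing genes with the largest difference are named per comparison, besides the ligands of the receptors on the list. Sirpa under PD0325901, Fcer1a under bFGF and the list genes named for their detection or background status fall outside that rule. They were chosen after their values were seen. The marker genes and the lists were chosen with earlier results of these data known.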

Additional observations from a re-analysis of the deposited data

How the results depend on the processing

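Of 14 marker genes that passed under PD0325901, 9 kept direction and call under all alternatives run: Aif1, C1qa, C1qb, Fcgr3, H2-Aa, Klrb1a, Lyz1, Lyz2 and Mrc1. Of 14 in bFGF against PD0325901, 7 did, and of 3 in bFGF against vehicle, none did. No called gene changed sign. With single arrays left out, the count lower under PD0325901 ran from 8 to 13 and higher from 1 to 2, lower under bFGF from 0 to 3 and higher from 0 to 2, and for bFGF against PD0325901 lower from 1 to 2 and higher from 6 to 14.

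Replicate numbers are shared by the groups, but deviations of same-numbered arrays correlated at only -0.0774, 0.12 and -0.117, so the numbers were not taken as pairs. With the number as a replicate block, 8 marker genes were lower and 2 higher under PD0325901, 2 lower and 0 higher under bFGF, and 1 lower and 11 higher in bFGF against PD0325901. With the bFGF numbers crossed in the block, 15 and 2, 5 and 3, and 2 and 13 were lower and higher.

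The count higher under PD0325901 was 1 where probes had to be above background on all 6 arrays. The count higher under bFGF was 2 with normexp, with that filter and with the mean of probes, and 4 with an intensity trend. Values that changed sign belonged to genes that had not passed. With the mean of probes they were Csf1r (0.060) and Fcgr2b (-0.13) under bFGF and Lyz2 (-0.082) for bFGF against PD0325901. With normexp it was Cd53 under bFGF (0.077), and with quantile normalization Ptprc (-0.19), Cd53 (-0.33) and Ms4a7 (-0.12) for bFGF against PD0325901. With single arrays left out, values crossed 0 under PD0325901 for Adgre1 (-0.13 to 0.0081), Fcgr1 (-0.33 to 0.20), Tyrobp (-0.053 to 0.063), Cd53 (-0.60 to 0.0020) and Cd74 (-0.39 to 0.13). Under bFGF they did for Ptprc (-0.20 to 0.077), C1qb (-0.018 to 0.17), Fcgr2b (-0.24 to 0.79), Trem2 (-0.12 to 0.13), Cd53 (-0.33 to 0.28) and Cd74 (-0.054 to 0.47). For bFGF against PD0325901 they did for Cd163 (-0.84 to 0.0052), Lyz1 (-0.11 to 0.073), Lyz2 (-0.035 to 0.12), C1qc (-0.29 to 0.19), Cd52 (-0.36 to 0.13) and Ms4a7 (-0.24 to 0.25). The cause was not tested.

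Dim genes are limited by signal over background: Spi1, Ccr1 and Ccr2 could not be compared, and Klrb1a, Cx3cr1 and Cd163 have only lower bounds.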

Other observations

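Lymphocyte genes were a list of 33, of which 17 were tested and 13 were not detected, among them Cd3d, Cd79b, Ms4a1 and Foxp3. Of the 17, 10 and 9 were well above background on the vehicle arrays, 17 on both bFGF arrays and 10 on both PD0325901 arrays. Under PD0325901, 7 were lower, 3 were higher and 7 did not pass, with a median of -0.50 against -0.05 over all genes tested, and 4 were lower without PD0325901 replicate 1 or with quantile normalization. Lck, a Src-family kinase of T cells, read -2.83 and -2.93 in vehicle, -2.18 and -2.11 with bFGF and -1.59 and -1.60 with PD0325901. It rose by 1.29 ± 0.05 under PD0325901 (limma, adjusted p = 0.000228) and by 0.73 ± 0.05 under bFGF (adjusted p = 0.00821, or 0.0609 without bFGF replicate 2). Thy1, a surface glycoprotein of T cells that stromal cells also carry, read -1.16 and -1.44 in vehicle, -2.40 and -2.23 with bFGF and -2.52 and -2.62 with PD0325901. It fell by 1.27 ± 0.12 under PD0325901 (adjusted p = 0.00179) and fell by 1.02 ± 0.12 under bFGF (adjusted p = 0.015, or 0.0671 and 0.0735 without either bFGF array). Under bFGF 1 gene of the list was lower, 4 were higher and 12 did not pass, with 2 higher without either vehicle array, 1 without bFGF replicate 1 and 0 without bFGF replicate 2. Of the 4, Cd2 and Cd79a were above background on no vehicle array. Of the 7 lower under PD0325901, Nkg7 and Klrb1c were above background on no vehicle or PD0325901 array. A separate fit, restricted to probes above background on all 6 arrays and adjusted over 12332 genes, held 9 genes of the list. In it, 4 were lower and 2 higher under PD0325901, and 1 was lower and 4 higher under bFGF. Its calls need not be those of the main fit. Of the 17 genes in the main fit, 58.8% passed under PD0325901 and 29.4% under bFGF, against 53.4% and 19.9% of all genes tested.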
